A study of Arabidopsis thaliana with 4 samples.

Results

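Genes that Arabidopsis thaliana is known to switch on when iron is short were followed here as 10 probe sets out of 22810 on the ATH1 oligonucleotide array. They are BHLH101 (245692_at), BHLH039 (251677_at), PYE (252427_at), AT1G47400 (261684_at), AT5G05250 (250828_at), AT3G56360 (251704_at), AT5G67370 (246998_at), OPT3 (245296_at), NRAMP4 (247001_at) and FRO3 (264751_at). These probe sets form a fixed list, chosen by gene function and by their signals on all 4 arrays. The difference between the genotypes below therefore describes these genes and was not tested on them. The platform annotation names the gene for 5 of the 10 probe sets (BHLH101, PYE, AT1G47400, AT5G05250 and AT3G56360). For the other 5 (BHLH039, AT5G67370, OPT3, NRAMP4 and FRO3) the name comes from the list itself. No plants were starved of or supplied with iron in the arrays analysed here, so the name of the group rests on background knowledge and could not be checked in these data.

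Total RNA came from inflorescences of mixed stages. Wild-type plants of the Col-0 ecotype were compared with xrn4-5 plants, which carry an allele of XRN4 in the same ecotype. Both grew at 21 °C in long days, 16 h light to 8 h dark, and the labels name no treatment other than freezing at harvest. Each genotype had 2 arrays, numbered 1 and 2, and the sources used here do not say whether they came from separately grown plants. The spread between the arrays of a genotype may therefore be technical. XRN4 is the cytoplasmic enzyme that digests RNA without a cap in the 5′ to 3′ direction, and the study compared transcript levels with and without the mutation. The annotation used here names no probe set for XRN4 alone, so the labels could not be checked against the mutated gene.

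Plants short of iron turn on a cascade of basic helix-loop-helix (bHLH) transcription factors. Factors of subgroup IVc, among them ILR3 and BHLH104, activate genes of subgroup Ib, among them BHLH039 and BHLH101, which in roots act with FIT to drive iron uptake. The same cascade induces PYE, a repressor that restrains part of the response, and the IRON MAN peptides. These peptides protect the subgroup IVc factors from BRUTUS, an E3 ubiquitin ligase that marks them for breakdown. In shoots the response includes genes that move iron through the phloem, out of vacuoles and across organelle membranes.

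All 10 genes gave lower signals in xrn4-5 than in Col-0, and the arrays of the 2 genotypes did not overlap for any of them. Of all 22746 probe sets that are not controls, 17.2% had both xrn4-5 arrays below both Col-0 arrays. Since the members were chosen with these values known, nothing is read from that contrast. The log2 difference (mean of log2(signal + 32) in xrn4-5 minus that in Col-0) ran from -0.71 for NRAMP4 to -3.17 for BHLH039. Its median over the 10 genes was -1.63, against 0.01 over the 13647 probe sets bright enough to be tested. On this scale 9 of the 10 were at least 2-fold lower in xrn4-5, as were 0.426% of all 22746 probe sets. At least 4-fold lower were 4 of the 10 and 0.0308% of all probe sets. In whole inflorescences, a smaller share of cells with a transcript and less of the transcript per cell cannot be told apart.

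**Figure D1:**
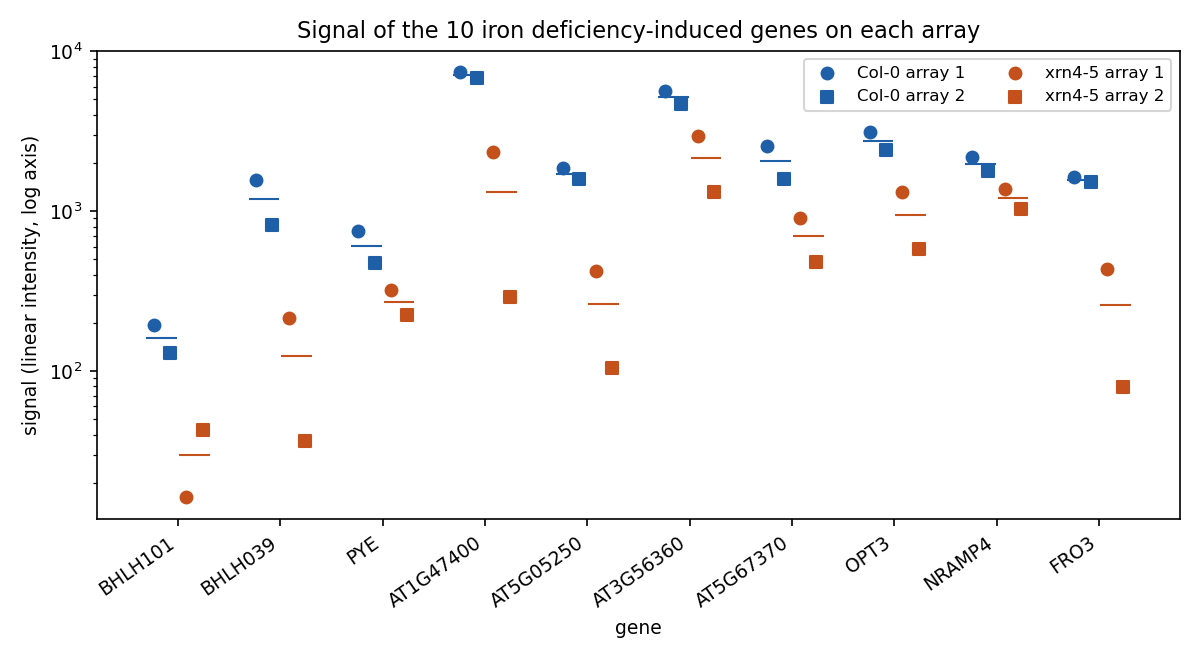
Signal of each of the 10 genes (linear intensity on a log axis) on the 2 Col-0 arrays (blue) and the 2 xrn4-5 arrays (orange), with circles for array 1, squares for array 2 and a bar at each genotype's mean. Every orange point lies below both blue points of its gene, and the gap between the orange points is widest for AT1G47400, at 2335 and 290.

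BHLH039 had the lowest log2 difference of the 3 regulators. This subgroup Ib factor is an activator of the iron uptake genes. Its signal was 1558 and 816 on the Col-0 arrays and 213 and 36.3 on the xrn4-5 arrays. The Col-0 mean of 1187 ± 525 (SD, n = 2) was 9.52 times the xrn4-5 mean of 125 ± 125. Both Col-0 arrays were well above both xrn4-5 arrays. The lower Col-0 signal was 3.83 times the higher xrn4-5 signal. On array 2 of xrn4-5, BHLH039 lay below 73.2, the lower quartile of all signals on that array. Its log2 difference of -3.17 was -2.24 without array 2 of xrn4-5 and -4.09 without array 1 of xrn4-5. The gene beside BHLH039 on the chromosome, BHLH038, has no named probe set. How much BHLH038 RNA the probe set of BHLH039 would read is not known here.

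BHLH101 belongs to the same subgroup. It was the dimmest of the 10 and the only one left out of the fit over all probe sets, because its mean fell among the dimmest 40%. Its signal was 193 and 129 in Col-0 and 16.2 and 43.0 in xrn4-5, with means of 161 ± 45.5 and 29.6 ± 19.0 (SD, n = 2). Both xrn4-5 values lay below the lower quartile of their arrays, 68.6 and 73.2. The log2 difference of -1.66 understates a gap at this brightness: with log2(signal + 1) it was -2.53, and with log2(signal + 100) it was -1.01. BHLH101 was also the only member whose xrn4-5 array 2 was above array 1.

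PYE, the repressor of the regulatory group, differed less. Its signal was 746 and 471 in Col-0 and 320 and 224 in xrn4-5. The means were 609 ± 195 and 272 ± 67.7 (SD, n = 2), a ratio of 2.24 and a log2 difference of -1.06. The nearest arrays of the 2 genotypes stood 1.47-fold apart, close to the 1.58-fold gap between the Col-0 arrays themselves. In roots PYE represses FRO3, and here both genes were lower in xrn4-5.

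AT1G47400 encodes IRON MAN 1, a short peptide that activates the iron deficiency response. Its signal was 7418 and 6770 in Col-0, within 1.10-fold of each other. On the xrn4-5 arrays it was 2335 and 290, an 8.05-fold gap within the genotype. The log2 difference of -3.03 therefore depended strongly on the array: it was -1.59 without array 2 of xrn4-5 and -4.47 without array 1 of xrn4-5. Even the higher xrn4-5 signal was 2.90-fold below the lower Col-0 signal. The gene beside AT1G47400 on the chromosome, AT1G47395, encodes a second IRON MAN peptide and has no named probe set. How much of its RNA the probe set of AT1G47400 would read is not known here.

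FRO3, a ferric-chelate reductase of mitochondria, showed the same uneven pattern. Its signal was 1630 and 1520 in Col-0 and 435 and 79.9 in xrn4-5. The means were 1575 ± 77.4 and 258 ± 251 (SD, n = 2), with a log2 difference of -2.81. The Col-0 arrays differed 1.07-fold and the xrn4-5 arrays 5.45-fold. Without array 2 of xrn4-5 the log2 difference of FRO3 was -1.78, and without array 1 of xrn4-5 it was -3.84.

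Of the transporters, OPT3 differed more than NRAMP4. OPT3 loads iron into the phloem and is needed for shoots to report their iron status to roots. Its signal was 3119 and 2402 in Col-0 and 1322 and 581 in xrn4-5. The means of 2760 ± 507 and 951 ± 525 (SD, n = 2) gave a log2 difference of -1.60, which was -1.03 without array 2 of xrn4-5. NRAMP4 releases iron from vacuoles. Its signal was 2172 and 1776 in Col-0 and 1367 and 1038 in xrn4-5, with means of 1974 ± 280 and 1202 ± 233 (SD, n = 2). With a ratio of 1.64 between these means it was the only member under 2-fold, which differs from the authors' own ratios given below. The 2 genotypes did not overlap for NRAMP4, but the nearest arrays were no farther apart than the 1.32-fold gap between its xrn4-5 arrays.

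AT5G67370, called CGLD27 in the reference, encodes a protein conserved in the green lineage and in diatoms. Its signal was 2554 and 1585 in Col-0 and 907 and 484 in xrn4-5, a log2 difference of -1.55. The arrays of each genotype differed by similar factors, 1.61-fold in Col-0 and 1.87-fold in xrn4-5. On the chromosome it lies close to NRAMP4, with 4 genes between them.

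The remaining members, AT5G05250 and AT3G56360, have no gene symbol in the reference. AT5G05250 gave 1853 and 1582 in Col-0 and 419 and 104 in xrn4-5. Its log2 difference was -2.81, and it was -1.95 without array 2 of xrn4-5 and -3.68 without array 1. The lower Col-0 signal of AT5G05250 was 3.77 times the higher xrn4-5 signal, the widest separation after BHLH039. AT3G56360 gave 5670 and 4670 in Col-0 and 2966 and 1321 in xrn4-5, a log2 difference of -1.36. Without array 2 of xrn4-5 that of AT3G56360 was -0.79, under 2-fold.

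Ranked by log2 difference from the lowest, the members held the first 4 of 13647 places, in the order BHLH039, AT1G47400, AT5G05250 and FRO3. The order among these 4 depends on the setting: AT1G47400 was lower than BHLH039 with log2(signal + 100), at -2.88 against -2.58, without array 1 of xrn4-5, at -4.47 against -4.09, and without array 1 of Col-0, at -2.96 against -2.71. OPT3 was at place 11, AT5G67370 at 13, AT3G56360 at 17, PYE at 39 and NRAMP4 at 138. Places describe how the list was made and carry no test. In the limma fit across all tested probe sets, 0 of the 9 tested members had an adjusted p under 0.05. That fit called 1 of 13647 probe sets, or 0.00733%, and the one it called was higher in xrn4-5. At an unadjusted limma p under 0.05, 539 probe sets were lower (3.95%) and 741 were higher (5.43%). The 9 tested members were among the 539, from which nothing is read. With the array number as a block, limma called 61 probe sets lower (0.447%), all 9 tested members among them, and 71 higher. The members were chosen with these values known and no label ties a number to a batch. Nothing is read from that count either.

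The 2 pairs of same-numbered arrays share no array and can be set side by side. For arrays 1 the log2 difference of the members ran from -0.66 for NRAMP4 to -2.70 for BHLH039, with a median of -1.56. For arrays 2 it ran from -0.76 for NRAMP4 to -4.40 for AT1G47400, with a median of -1.89. The difference was larger in arrays 2 for 8 of the 10, while BHLH101 and PYE had the larger difference in arrays 1. Across the 10 genes the differences in the 2 pairs correlated with Pearson's r = 0.57 and Spearman's rho = 0.54. Without BHLH101, the dimmest, r was 0.78. Over all 13647 tested probe sets r was 0.40. These values describe how the genes line up, and the genes of a pair share their arrays. The members were chosen with these arrays known, so nothing is read from their r, with or without BHLH101, beside that of all tested probe sets.

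**Figure D2:**
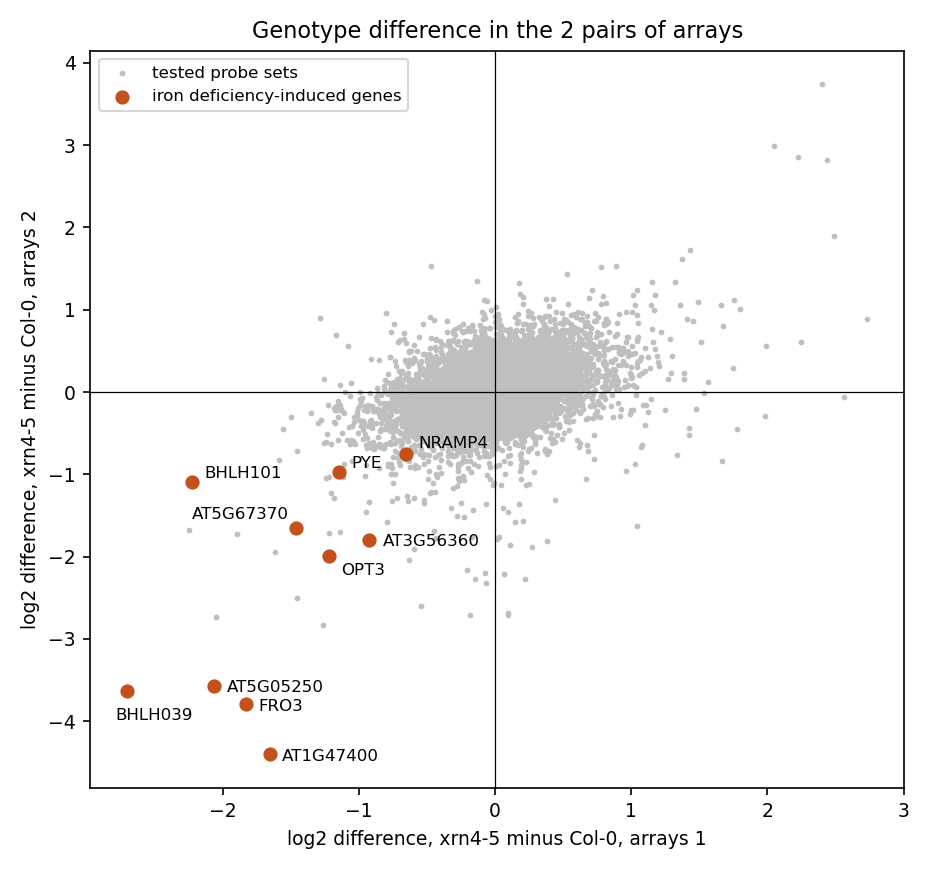
Log2 difference between xrn4-5 and Col-0 on arrays 1 (x axis) and arrays 2 (y axis), on the log2(signal + 32) scale, for the 13647 tested probe sets (grey) and the 10 genes (orange, BHLH101 being shown although it was too dim to be tested). All 10 lie in the lower left quadrant, from NRAMP4 at -0.66 and -0.76 to AT1G47400 at -1.65 and -4.40.

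The authors' deposited table gives its own log2 ratios for the same pairs. In the authors' deposited table all 10 ratios were negative in both pairs. BHLH039 had -2.8 and -4.1 there, AT1G47400 had -1.6 and -4.6, and FRO3 had -1.9 and -3.3. BHLH101 had -3.2 and -1.9 in the authors' deposited table. PYE had -1.6 in both pairs, and NRAMP4 had -1.1 and -1.0. A ratio of -1 or lower in both pairs was listed for 9 of the 10 and for 0.862% of 22746 probe sets in the authors' deposited table. The exception was AT3G56360, with -0.9 and -1.6. The authors' change p-value, which is near 1 for a decrease, was over 0.99 in both pairs for all 10 in the authors' deposited table, and for 1.93% of probe sets. These ratios and p-values come from the same 4 arrays, whose signals were known when the list was made. They are a second description of the same data, and nothing is read from either share.

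The members also differed in a shared direction between arrays of one genotype. In Col-0, array 2 was lower than array 1 for all 10 members, as it was for 54.0% of all probe sets. The folds were small, from 1.07 for FRO3 to 1.91 for BHLH039, and none reached 2-fold on the log2(signal + 32) scale, as 1.28% of all probe sets did. In xrn4-5, array 2 was lower than array 1 for 9 of the 10, and for 47.5% of all probe sets. There the gap was at least 2-fold for 6 of the 10 (BHLH039, AT1G47400, AT5G05250, AT3G56360, OPT3 and FRO3), against 0.906% of all probe sets. The median log2 change from array 1 to array 2 was -1.15 in xrn4-5 and -0.33 in Col-0. Over the tested probe sets it was 0.01 and -0.01. As a result 9 of the 10 had one order, from high to low Col-0 array 1, Col-0 array 2, xrn4-5 array 1 and xrn4-5 array 2, an order found in 4.77% of all probe sets. All 4 arrays were known when the list was made, so this is a description too.

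Other genes of iron handling were taken from 4 lists of 65 genes, of which only 13 have a named probe set and 10 were bright enough to be tested. None of the 10 passed the limma test in either direction (adjusted p from 0.526 to 0.995), and 1 had an unadjusted p under 0.05. The median log2 difference was -0.04, against 0.01 over all tested probe sets, with 3 estimates higher and 7 lower in xrn4-5. Both xrn4-5 arrays lay below both Col-0 arrays in 4 of them, beside 18.6% of tested probe sets.

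The upstream factors of the cascade showed no difference past the test. That test called 1 of 13647 probe sets and 0 of the 9 tested members, so not passing does not set these factors apart from the members. ILR3, a subgroup IVc factor, gave 1371 and 1383 in Col-0 and 1361 and 1298 in xrn4-5, a log2 difference of -0.05 with a 95% limma interval from -0.33 to 0.23. For BHLH104, of the same subgroup, the values were 663 and 693 in Col-0 and 680 and 673 in xrn4-5. Its log2 difference was 0.00, with an interval from -0.29 to 0.29. The genotypes overlapped for BHLH104, while both ILR3 signals in xrn4-5 lay just below those in Col-0.

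The other measured subgroup IVc factors, BHLH34 and BHLH115, had log2 differences of 0.15 (interval from -0.25 to 0.55) and -0.16 (from -0.48 to 0.17). URI, a bHLH factor that acts with subgroup IVc, averaged 276 ± 25.1 in Col-0 and 231 ± 36.4 in xrn4-5 (SD, n = 2), a log2 difference of -0.23 (from -0.65 to 0.19). A 2-fold difference lies outside the intervals of all 5 of these regulators. The intervals are not adjusted for the number of genes and rest on 2 arrays per genotype and a shared prior. If the spread between arrays is technical, they do not cover differences between plants. BTSL1 and BTSL2, relatives of BRUTUS that mark FIT for breakdown, were too dim to be tested.

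In the uptake and chelation list, 2 of 20 genes were tested and neither passed. F6'H1, which makes the scaffold of iron-binding coumarins, gave 192 and 472 in Col-0 and 196 and 282 in xrn4-5, so that the genotypes overlapped. COSY, which closes the coumarin ring, had a log2 difference of 0.17. S8H, of the same pathway, was too dim to be tested.

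In the list of transport within the plant, 3 of 19 were tested. MIT1, an importer of iron into mitochondria, gave 518 and 458 in Col-0 and 354 and 397 in xrn4-5. The genotypes did not overlap, and the log2 difference was -0.35 (95% interval from -0.69 to -0.01, limma unadjusted p = 0.0435, adjusted p = 0.526). Its relative MIT2 had a log2 difference of -0.02 and MTP8, a vacuolar metal transporter, one of 0.25. No gene of the storage list, which holds the ferritins, has a probe set named for it alone. The levels of FIT, BTS (BRUTUS), BHLH038, BHLH100 and IRT1 were not analysed here for the same reason.

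**Figure D3:**
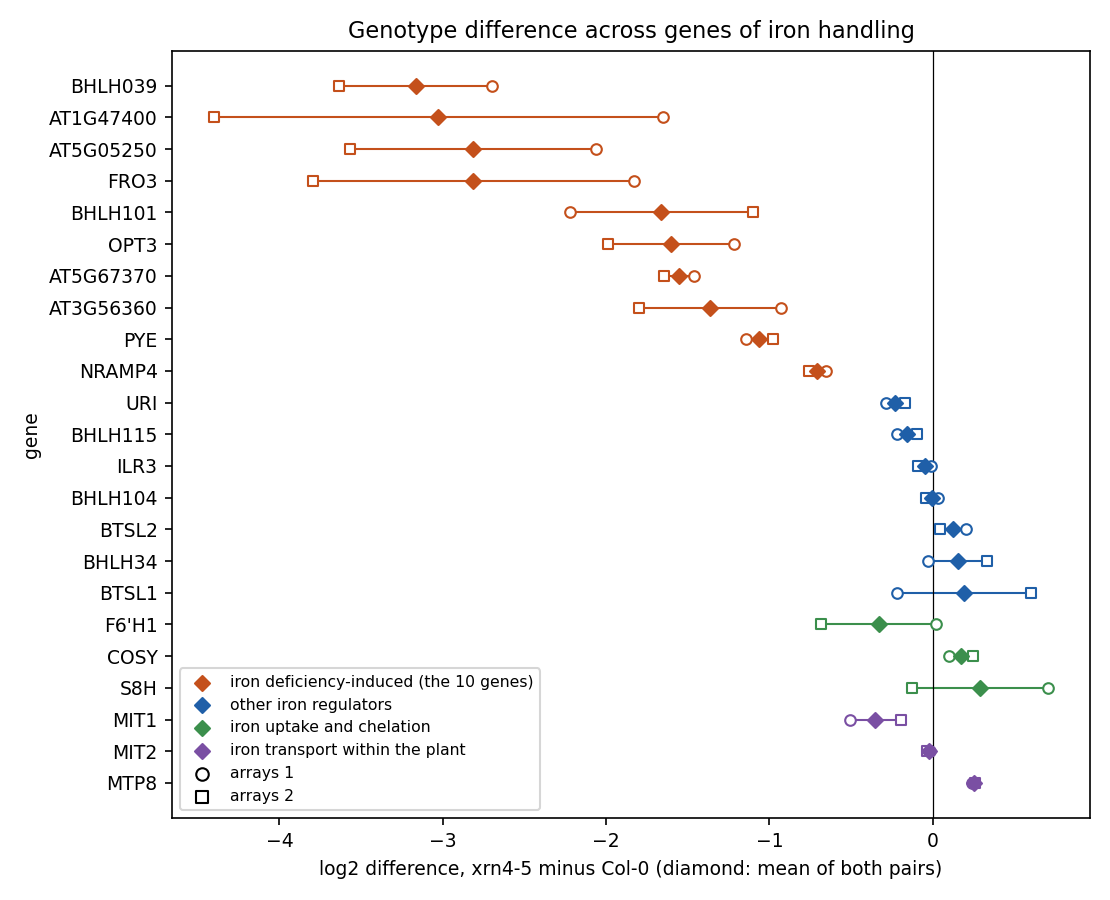
Log2 difference between xrn4-5 and Col-0, on the log2(signal + 32) scale, for the 10 iron deficiency-induced genes (orange) and the 13 other iron genes with a named probe set (blue, green and purple by list), with open circles for arrays 1, open squares for arrays 2 and a diamond at their mean. The diamonds of the 10 genes lie between -0.71 and -3.17 and those of the 13 others between -0.35 and 0.29, while single pairs range more widely. BHLH101, BTSL1, BTSL2 and S8H were too dim to be tested.

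Markers of the tissue and of cell types in it were few in the annotation. Of 11 flower genes 2 are named, AGL24 and SPT, and their summed signals overlapped between genotypes. Their single signals, from 166 to 272, lay mostly below the median of their array, so they are a weak check of the tissue. Pollen markers, 5 of 7 named, summed to 3418 and 3385 in xrn4-5 and to 5886.5 and 4824 in Col-0. AT2G47050 made up most of that gap, with 2170 and 2158 in xrn4-5 and 4188 and 3469 in Col-0. TUA1, ACT12 and HTR10 also had both xrn4-5 arrays below both Col-0 arrays, with log2 differences of -0.29, -0.29 and -0.39. HTR10 was too dim to be tested. AGL65 overlapped between the genotypes and had a log2 difference of -0.06. Tapetum markers, 4 of 9 named, summed to 7637 and 8390 in xrn4-5 and to 9176 and 9260 in Col-0. Most of the tapetum sum was ATA27, with 5235 and 5505 in xrn4-5 and 6481 and 5845 in Col-0. A9 overlapped between the genotypes, with 1815 and 2209 in xrn4-5 and 2002 and 2668 in Col-0. The pollen and tapetum sums were thus both lower in xrn4-5, in the same direction as the iron genes, each led by 1 gene. None of these markers was at 0, and all 4 tested genes of each list had lower estimates in xrn4-5, with none past the limma test (adjusted p from 0.374 to 0.946). In each list 3 of the 4 tested genes had both xrn4-5 arrays below both Col-0 arrays, beside 18.6% of tested probe sets. Photosynthesis markers, 3 of 10 named, summed to 30604 and 26983 in xrn4-5 and to 30728 and 27748 in Col-0, so that the genotypes overlapped. The part of pollen and tapetum RNA in the iron result was not tested.

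The genes whose pattern over the 4 arrays was most like the members' mean were sought among 632 other tested probe sets with a range of at least 1 on the log2 scale, 295 of them with exactly 1 named gene. Among those 295, the highest Pearson correlations over the 4 arrays belonged to AT1G03050 (0.998), AT5G50915 and AT3G16220 (both 0.985 after rounding), psaC (0.983), EXO (0.967) and AT1G09500 (0.960). With 4 arrays a high value is easily reached: 24 of the 632 were over 0.95, unnamed probe sets included. AT1G03050 gave 268 and 225 in Col-0 and 163 and 105 in xrn4-5. The plastid gene psaC, for a subunit of photosystem I, gave 1898 and 1570 against 1339 and 908. Their log2 differences of -0.77 and -0.63 were near that of NRAMP4. EXO, a gene induced by brassinosteroids, had one of -1.13, near that of PYE.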

How the data were processed

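Each of 4 ATH1 arrays had 1 deposited intensity per probe set, on a linear scale; the submitters' processing notes name GCOS without a version. Per the labels' protocols, labelling started from 15 µg of RNA. Median signals were 240 to 248, and 2 arrays per genotype limit the precision. The authors' deposited table of log2 ratios and change p-values per pair of arrays was used only as their own comparison, whose p-value method the sources used here do not state.

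Intensities were analysed as log2(signal + 32) without further normalization. The 64 control probe sets and the dimmest 40% by mean over 4 arrays were left out, leaving 13647. The genotypes were compared in limma 3.58.1 (R 4.3.3; lmFit, then eBayes with a trended prior; two-sided). Each probe set had 2 residual degrees of freedom and 3.71 from the prior. P-values were adjusted by Benjamini-Hochberg, with calls at 0.05. The fit was also run on simulated arrays whose errors were independent. Deviations shared by same-numbered arrays were not simulated, so that run does not show how the fit behaves with them. Means ± SD are of linear signals. Figures used matplotlib 3.10.9.

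Probe sets were named from the platform annotation through gene identifiers to TAIR10.1 names; for a gene with several, the brightest was used. The members, lists and rules were chosen with earlier results of these data known. All members were named, then up to 4 genes per iron list by smallest p, any ferritin, IRT1, FIT, BTS, BHLH038 and BHLH100 with a probe set, and the 6 named genes most correlated with the members' mean; other genes were named after their values were seen. Alternatives changed the pseudocount, filter, normalization, variance prior, block and arrays used.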

Additional observations from a re-analysis of the deposited data

How the results depend on the processing

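Over 80 recomputed log2 differences of the 10 genes (other pseudocounts, quantile normalization, median centring, and each array left out), all 80 stayed below 0. The genotypes did not overlap for any member, so neither another pseudocount nor a left-out array could change the sign. Leaving out an array also could not move a value by more than the replicate SD pooled over the genotypes, so nothing is read from those 40. Of the other 40, 2 moved by more than that SD, both of BHLH101 with another pseudocount. They were -2.53 with log2(value + 1) and -1.01 with log2(value + 100). With each array left out in turn the median of the 10 genes ranged from -1.36 to -2.08, and that of the other iron genes from -0.01 to -0.05. The cause of the moves was not tested. The count called higher, 1, became 0 without a filter and with eBayes without trend, and ranged from 0 to 3 with an array left out; the 0 called lower ranged from 0 to 7, in fits that lend the single remaining array the spread of the other genotype. With the array number as a replicate block, 71 were called higher and 61 lower (0.447% of those tested), among them all 9 tested members, a count chosen after seeing the data; in the other fits 0 members were called. Arrays with one number deviated from their genotype means together (r = 0.42 over tested probe sets), but no label ties a number to a batch or day. No other iron gene passed in any of these fits, but with the replicate block the pollen marker AT2G47050 was called lower (limma adjusted p = 0.0233).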
